A study of Mus musculus with 2 samples.

Results

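The forebrain neuron transcription factors are a set of 37 genes, named by symbol, out of 55536 genes in the quantification. They are members by name, with no threshold on a measured value, and all 37 symbols were found. The set holds proneural and neuronal basic helix-loop-helix (bHLH) factors, homeodomain and POU factors, zinc finger repressors, the MEF2 and CREB groups, the nuclear factor I (NFI) family, E proteins and some cofactors without a DNA-binding domain of their own.

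Tissue labelled as a layer of the hippocampus from male B6CASTF1/J mice, an F1 hybrid of C57BL/6J and CAST/EiJ, aged 2 months, was profiled by total RNA-seq. Both libraries belong to 1 group, with 300 ng of RNA each and added ERCC spike-in RNAs, and no treatment or genotype was compared. The labels number them as biological replicates 1 and 2 with separate biosample records but 1 shared donor record, so the spread between them is not known to be a spread between animals. The total expected count, which is the estimated number of assigned reads, was 31422827 in replicate 1 and 31303010 in replicate 2.

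Transcription factors of this kind bind short DNA motifs and set which genes a neuron can express. In the forebrain they first pattern the cortical sheet, then fix whether a newborn cell becomes a dentate granule cell, a pyramidal cell of a CA field or a projection neuron of a neocortical layer. Several are kept on in the adult, where E proteins pair with neuronal bHLH factors, and MEF2 and CREB proteins link synaptic activity to transcription. Many of these genes make several proteins by including or skipping short coding exons.

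The exons on which the isoform results turn are shown here, since they separate the protein forms that the transcript levels tell apart. Each is written 5′ to 3′ on the strand of its gene, with the exon in capitals and the 24 bases of the neighbouring exons on each side in lower case. The sequences come from the GENCODE M21 transcripts on mm10. The first set holds the short exon of the MEF2 genes, an acidic insert of neuronal and muscle forms known as the β exon. It lies at chr7:67244521-67244544 on the minus strand in Mef2a, at chr13:83654598-83654621 on the plus strand in Mef2c and at chr3:88161781-88161801 on the plus strand in Mef2d.
Mef2a 24-nt exon: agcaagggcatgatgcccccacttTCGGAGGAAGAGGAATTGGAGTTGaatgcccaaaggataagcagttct
Mef2c 24-nt exon: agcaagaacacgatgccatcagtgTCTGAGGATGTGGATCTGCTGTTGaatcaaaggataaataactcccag
Mef2d 21-nt exon: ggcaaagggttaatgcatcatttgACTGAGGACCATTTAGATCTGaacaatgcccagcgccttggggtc

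The Mef2a and Mef2c exons were identical at 17 of 24 positions. The second set is the pair of neighbouring Mef2c exons that are used in place of each other, both on the plus strand, at chr13:83625265-83625408 and chr13:83625470-83625607. They follow the exons of the DNA-binding domain, and the lower-case flanks are the same for both. Aligned to each other, the exons were 62.5% identical.
Mef2c 144-nt exon: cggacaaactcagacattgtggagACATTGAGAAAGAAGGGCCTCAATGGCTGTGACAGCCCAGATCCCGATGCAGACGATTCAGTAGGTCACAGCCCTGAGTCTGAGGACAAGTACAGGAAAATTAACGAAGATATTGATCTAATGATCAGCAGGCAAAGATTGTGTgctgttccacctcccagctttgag
Mef2c 138-nt exon: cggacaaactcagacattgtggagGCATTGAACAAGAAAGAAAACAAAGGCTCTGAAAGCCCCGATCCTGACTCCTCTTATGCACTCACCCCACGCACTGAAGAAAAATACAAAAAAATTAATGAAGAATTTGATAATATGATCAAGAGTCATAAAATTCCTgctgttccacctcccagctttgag

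The third set is the 42-nt exon of Creb1 at chr1:64559727-64559768 on the plus strand, which separates the α form of CREB from the shorter Δ form.
Creb1 42-nt exon: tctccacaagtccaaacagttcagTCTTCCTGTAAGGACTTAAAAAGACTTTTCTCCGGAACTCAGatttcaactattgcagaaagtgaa

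The fourth set is an exon of similar size that keeps the reading frame in 3 of the NFI genes, at chr4:98041551-98041679 on the plus strand in Nfia, chr10:81406089-81406214 on the minus strand in Nfic and chr8:84723728-84723850 on the minus strand in Nfix. Aligned in pairs, the Nfia exon was 59.7% identical to that of Nfic and 57.4% to that of Nfix, and the Nfic and Nfix exons were 53.2% identical.
Nfia 129-nt exon: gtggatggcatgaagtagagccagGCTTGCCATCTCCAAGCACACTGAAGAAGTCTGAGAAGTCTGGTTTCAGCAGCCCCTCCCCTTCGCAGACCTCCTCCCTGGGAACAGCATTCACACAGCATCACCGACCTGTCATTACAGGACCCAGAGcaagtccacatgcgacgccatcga
Nfic 126-nt exon: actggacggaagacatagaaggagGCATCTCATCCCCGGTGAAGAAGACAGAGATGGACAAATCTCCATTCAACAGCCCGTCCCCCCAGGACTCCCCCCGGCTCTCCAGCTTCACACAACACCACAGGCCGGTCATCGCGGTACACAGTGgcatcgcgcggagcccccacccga
Nfix 123-nt exon: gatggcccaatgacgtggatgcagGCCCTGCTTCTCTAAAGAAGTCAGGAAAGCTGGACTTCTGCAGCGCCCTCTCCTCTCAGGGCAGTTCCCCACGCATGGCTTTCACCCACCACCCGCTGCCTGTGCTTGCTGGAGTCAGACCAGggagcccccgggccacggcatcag

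The set stood high in the hippocampus as a whole. As the genes were chosen with earlier results of these data known, this is a description and not a test. Of the 37 genes, 36 reached the detection level of 1 TPM (a level per transcript length, scaled to a fixed sum) in both libraries, and 57.7% of the 22028 protein-coding genes did. The median of the 37 mean levels was 39.0 TPM, beside a median of 14.7 TPM over the 12710 detected protein-coding genes. Taken by library, the median of the set was 39.7 TPM (replicate 1) and 37.1 TPM (replicate 2). A mean of at least 50 TPM was held by 13 of the 37 genes and by 15.3% of detected protein-coding genes, and a mean of at least 100 TPM by 4 of the 37 and by 6.41%. The levels summed over the set were 2109 and 1994 TPM in the same order. Expected counts per gene and library ran from 47 to 23834. With genes in order of mean level, 17 of the 36 neighbouring pairs overlapped between the libraries, so the order within the middle of the range is not fixed by these data. Fewer cells of a type and less RNA per cell cannot be told apart in bulk tissue.

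**Figure D1:**
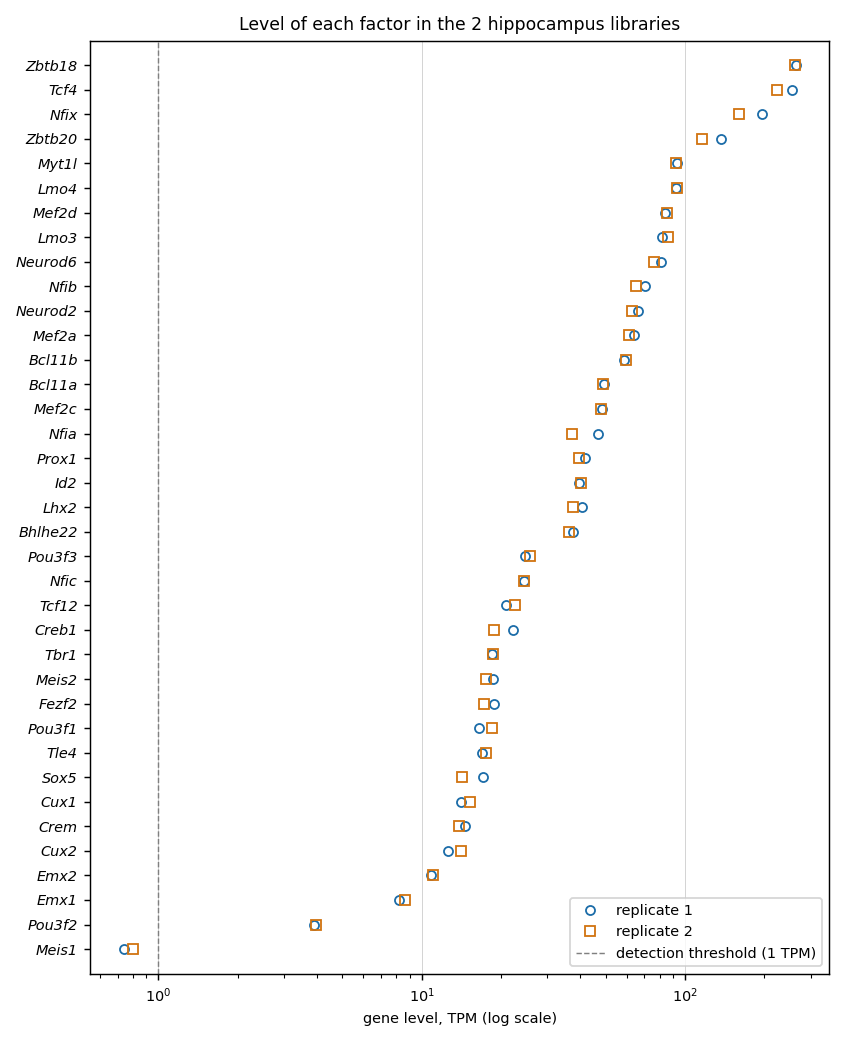
Level of each of the 37 genes in TPM on a log axis, with a circle for replicate 1 and a square for replicate 2 and the detection level of 1 TPM as a dashed line. Zbtb18 and Tcf4 stand above 200 TPM in both libraries, most genes lie between 10 and 100 TPM, and Meis1 alone lies below the detection level.

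The highest level of the set was that of a zinc finger repressor, while Tcf4 and Nfix stood above the other zinc finger repressors. Zbtb18 (ENSMUSG00000063659.11, chromosome 1 from 177442351 to 177450764 on mm10), a repressor needed for cortical and hippocampal neurons to mature, had 263 and 262 TPM in replicates 1 and 2, at percentile 98.6 of detected protein-coding genes. Its relative Zbtb20 (chromosome 16 from 42875881 to 43642602), known for setting the identity of CA1 pyramidal cells and also present in astrocytes, had 136 and 116 TPM. Zbtb18 was above Zbtb20 in both libraries, with 65.9% and 69.2% of their summed TPM, but Zbtb20 held the larger share of counts at 59.5% and 54.6%, its longest transcript being 26901 nt. Myt1l, which represses non-neuronal genes in neurons, had 93.3 and 92.5 TPM. Bcl11b, also called CTIP2 and a marker of granule and CA1 neurons, had 58.9 and 59.7 TPM. Its paralogue Bcl11a had 49.1 and 48.9 TPM, below Bcl11b in each library, and for both genes the libraries lay within 1 TPM of each other.

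Of the factors tied to granule and pyramidal neurons, Neurod6 and Neurod2 stood highest. Neurod6, a bHLH factor of pyramidal neurons, had 81.4 and 76.5 TPM, and Neurod2, which acts in granule and pyramidal neurons and their synapses, had 66.2 and 62.7 TPM. Neurod6 was above Neurod2 in each library, and the ranges did not overlap. Prox1 (ENSMUSG00000010175.13, chromosome 1 from 190118035 to 190170714), the factor that fixes granule cell over pyramidal identity in the dentate gyrus, had 41.7 and 39.4 TPM, from 5905 and 5792 counts. Bhlhe22, a bHLH repressor of projection neurons, had 37.6 and 36.2 TPM. Tbr1, a T-box factor of glutamatergic neurons, was lower at 18.4 and 18.7 TPM. The levels of these 5 genes fell into an order, Neurod6, Neurod2, Prox1, Bhlhe22 and Tbr1, that was the same in both libraries.

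Factors known for patterning the early cortex ran from below the detection level to about the median of the set. Lhx2, a LIM homeodomain factor that gives the cortical sheet its identity, had 40.5 and 37.4 TPM. The paralogues Emx2 and Emx1, which mark and size the dorsal forebrain, were lower, Emx2 at 10.8 and 11.0 TPM and Emx1 at 8.23 and 8.66 TPM. Of the MEIS homeodomain cofactors, Meis2 had 18.7 and 17.5 TPM, while Meis1 had 0.74 and 0.80 TPM. Meis1 rested on 47 and 50 counts, so it was present at low depth and not absent. Meis2 held 96.2% and 95.6% of the summed TPM of the pair.

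Genes best known as markers of neocortical layers were also detected in the hippocampus. Fezf2, which directs neurons to project below the cortex, had 18.8 and 17.3 TPM, and Sox5, an HMG-box factor of deep-layer neurons, had 17.1 and 14.3 TPM. The upper-layer homeodomain factors Cux1 and Cux2 had 14.1 and 15.2 TPM and 12.6 and 14.1 TPM, and these 2 genes overlapped in range. Among the POU factors, Pou3f3 stood at 24.7 and 25.8 TPM, Pou3f1, a marker of CA1 neurons, at 16.6 and 18.5 TPM, and Pou3f2 at 3.89 and 3.97 TPM. Pou3f3 held 54.7% and 53.5% of the summed POU level, Pou3f1 36.7% and 38.3%, and Pou3f2 8.61% and 8.23%. Each POU gene has a single annotated transcript, so these shares do not depend on how reads were split between isoforms.

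The activity-linked factors divided unevenly. The MEF2 proteins are MADS-box activators that control synapse number in response to activity, and all 3 members were well above the median of detected genes. Mef2d had 83.8 and 85.1 TPM, Mef2a 63.8 and 61.0 TPM and Mef2c 48.4 and 48.0 TPM, with no overlap between neighbours. Mef2d held 42.8% and 43.8% of their sum. Creb1, the cyclic AMP response factor, had 22.1 and 18.8 TPM and was above its paralogue Crem, which makes activators and the inducible repressor ICER, at 14.6 and 13.8 TPM. Crem rested on 369 and 336 counts.

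The E protein Tcf4 (ENSMUSG00000053477.17, on chromosome 18), the common dimer partner of neuronal bHLH factors and a gene of Pitt-Hopkins syndrome in humans, had 254 and 224 TPM. The related Tcf12 had 20.9 and 22.5 TPM, so Tcf4 held 92.4% and 90.8% of their sum. Id2, an HLH protein without a DNA-binding region that sequesters E proteins, had 39.7 and 40.2 TPM, above Tcf12 and below Tcf4 in each library. NFI proteins drive glial and neuronal maturation, and their levels ranked Nfix, Nfib, Nfia and Nfic in both libraries. Nfix (ENSMUSG00000001911.16, chromosome 8 from 84699876 to 84800344) had 196 and 160 TPM, Nfib 70.7 and 65.3 TPM, Nfia 46.7 and 37.1 TPM, and Nfic 24.5 TPM in both. Over transcripts of at least 1000 nt alone, Nfia averaged 18.2 TPM and Nfic 23.8 TPM, so the order of these 2 genes turned. Nfix alone made up 58.1% and 55.8% of the family's TPM.

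The LIM-only cofactors stood among the higher levels of the set and Tle4 among the lower. Lmo4 and Lmo3, LIM-only adaptors that compete with LIM homeodomain factors such as Lhx2 for shared partners, had 92.1 and 93.4 TPM and 81.5 and 86.1 TPM. Lmo4 was above Lmo3 in each library by TPM, while Lmo3, with the longer transcripts, had the larger share of counts at 59.4% and 60.0%. Tle4, a Groucho-type corepressor, had 17.0 and 17.5 TPM, with 96.8% and 96.7% of it in 1 transcript.

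**Figure D2:**
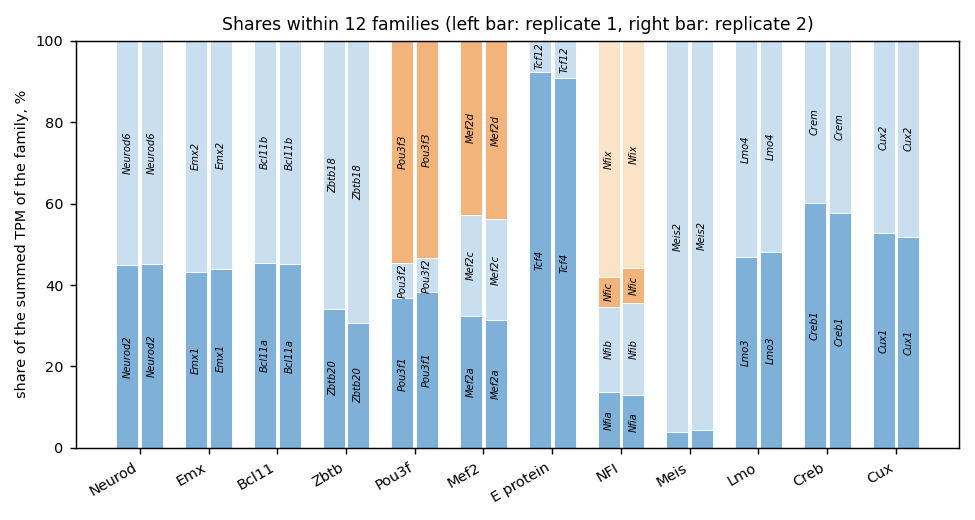
Share of each gene in the summed TPM of its family, in percent, for the 12 families of 2 to 4 members, with a bar for each library. One gene holds over 90% in the E protein and Meis families, while Neurod, Cux, Lmo and Bcl11 are split near evenly.

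By TPM the leading gene within families held between libraries and methods, in some families by a narrow margin. The same gene led in 12 of 12 families in both libraries, and also in both libraries of the second quantification, which was derived from the reads without the alignment. By share of counts, which is not corrected for length, 9 of 12 families kept that leader, and the Neurod, Zbtb and Lmo pairs had the other gene in front. The narrowest TPM leads were seen in replicate 2 of the second quantification. There Creb1 held 50.1% against 49.9% for Crem, and Mef2d 39.6% against 38.4% for Mef2a. In replicate 2 of the first quantification Cux1 held 51.9% against 48.1% for Cux2, and Lmo4 52% against 48% for Lmo3. In the second quantification all levels were higher, by a median of 1.66 times over the 37 genes and 1.69 times over detected protein-coding genes. The factor ran from 1.20 for Sox5 to 2.61 for Meis2, and over detected protein-coding genes percentile 5 was 1.33 and percentile 95 was 2.48.

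Related genes outside the set were drawn from lists of partners and of factors for other regions. Of the bHLH partners and paralogues 7 of 10 were detected, with Bhlhe40 highest at 38.7 ± 2.66 TPM (SD, n = 2) and Bhlhe23 lowest with 0 and 3 counts. Of the MEF2 and CREB paralogues and cofactors 10 of 11 were detected. The class IIa histone deacetylase Hdac5, which binds and represses MEF2, was highest at 104 ± 6.51 TPM (SD, n = 2), and Mef2b, the MEF2 gene outside the set, had 0.15 and 0.21 TPM. All 12 LIM, TLE and MEIS partners were detected, from Pbx3 at 2.97 ± 0.141 TPM to Aes, a short Groucho-type protein, at 299 ± 0.431 TPM (SD, n = 2). The interneuron factor list had 11 of 12 detected and a median of 6.60 TPM, led by Satb1 at 27.7 TPM. Foxp1, at 36.7 TPM, led the list for neocortex, thalamus and striatum, of which 5 of 10 were detected.

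Factors of the posterior brain and of other organs were nearly absent. Of 12 midbrain and hindbrain factors only Gata2 was detected, at 2.75 and 2.23 TPM, and 7 had 0 counts in both libraries. Of 10 factors of other organs 0 were detected, and 7 had 0 counts in both. A count of 0 allows up to 3 counts in a library. Markers of the cells in this tissue were present for granule, CA1 and CA3 neurons, interneurons, astrocytes, oligodendrocytes, microglia and endothelial cells, with every listed marker at 1 TPM or more in both libraries, and for the choroid plexus with 2 of 5. The CA1 list includes Pou3f1, which belongs to the set.

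The libraries were close for these genes, as they were for most genes. Among 36 of them with at least 50 counts in both libraries, 0 were 1.5-fold apart in TPM, and 1.77% of 13916 genes were. In counts scaled by TMM the number was again 0, beside 0.690% of genes, and in the second quantification it was 0 beside 2.54%. For 36 genes a number of 0 lies near these shares. The median log2 ratio of replicate 2 over replicate 1 was -0.01 for the set and -0.04 for all genes, and the SD of the ratios was 0.12 for the set and 0.20 for all genes. The SDs were not compared at matched counts. In TPM, 21 of the 36 were lower in replicate 2, as were 62.6% of all genes. In TMM-scaled counts 19 of the 36 were lower, and 48.8% of all genes.

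**Figure D3:**
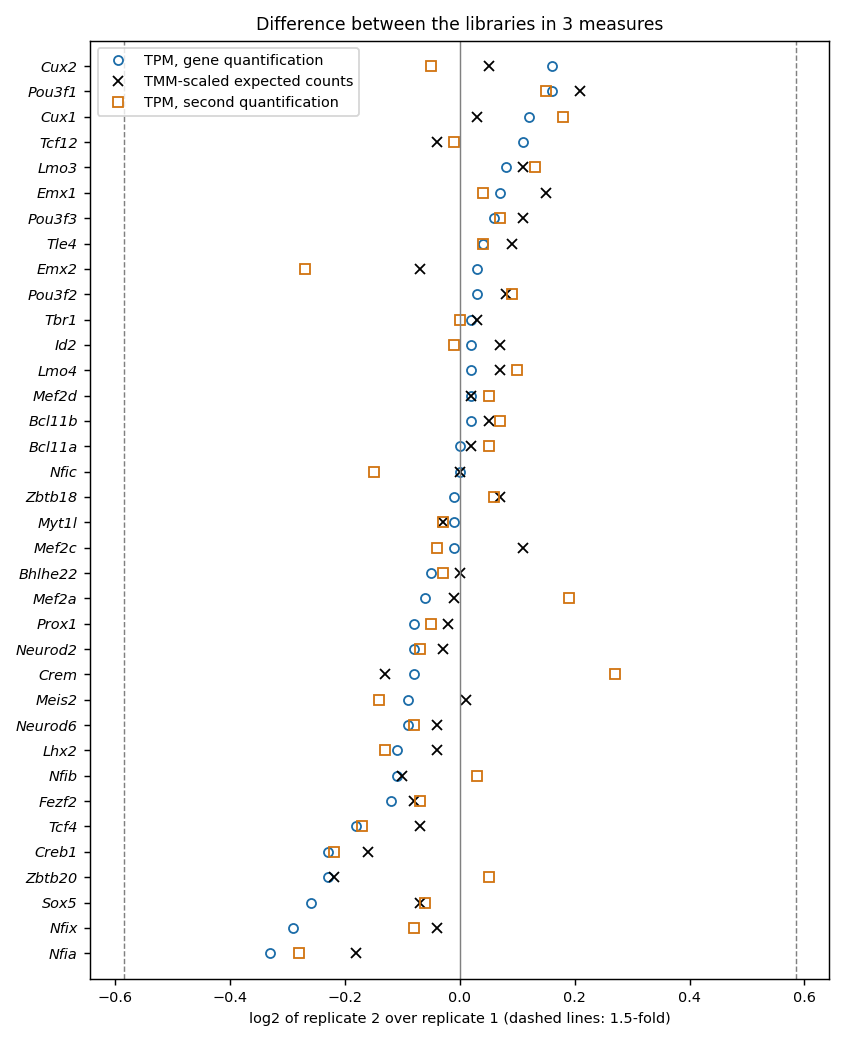
Log2 ratio of replicate 2 over replicate 1 for each of the 36 genes with at least 50 counts in both libraries, measured as TPM, as counts scaled by TMM, or by the second quantification, with dashed lines at 1.5-fold. Nfia and Creb1 lie below 0 in all 3 measures and Pou3f1 above 0, as do other genes on either side. Nfix and Sox5 stay below 0 but vary in size, and Zbtb20 changes direction in the second quantification.

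A log2 ratio of at least 0.2 in either direction was seen in TPM for 5 of the 36 genes, Nfia, Nfix, Sox5, Zbtb20 and Creb1, and for 24.5% of all genes. All 5 were lower in replicate 2. In TMM-scaled counts the count was 2 of the 36, Zbtb20 and Pou3f1, beside 14.9% of all genes, and in the second quantification 4 of the 36, Nfia, Creb1, Emx2 and Crem, beside 27.7%. Nfia had a log2 TPM ratio of -0.33, with -0.18 in counts (95% interval -0.25 to -0.12, counting error only) and -0.28 in the second quantification. Creb1 was at -0.23, with -0.16 in counts (95% interval -0.26 to -0.06) and -0.22 in the second quantification. Pou3f1 went the other way, at 0.16 in TPM, 0.21 in counts (95% interval 0.10 to 0.31) and 0.15 in the second quantification. For these 3 genes the direction was the same in all 3 measures, with 1 library on each side and no replicate check. Other genes of the set also kept their direction. Among them Tcf4, Nfix and Sox5 were below 0 in all 3 measures, and Lmo3 and Pou3f3 above 0. Gm2164, an antisense gene that shares 330 exon bases with Pou3f1, had 24 and 46 counts.

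For Nfix, Sox5 and Zbtb20 the direction or size depended on the measure. The log2 ratio of Nfix was -0.29 in TPM but -0.04 in counts and -0.08 in the second quantification. The TPM of a 234-nt transcript, Nfix-208, was 36.87 in replicate 1 and 10.01 in replicate 2, and it was 0 in both libraries of the second quantification. Sox5 was at -0.26 in TPM, -0.07 in counts and -0.06 in the second quantification, and its 351-nt transcript Sox5-208, the most abundant at 6.29 and 4.70 TPM, was also 0 in the second quantification. Zbtb20 was at -0.23 in TPM and -0.22 in counts but 0.05 in the second quantification, where its 463-nt transcript Zbtb20-208 had 19.2 and 44.8 TPM. Oligodendrocyte markers summed to 936 and 834 TPM, with 4 of 5 lower in replicate 2, and the astrocyte sum was 459 TPM in both. None of these glial markers was at 0. Granule cell markers summed to 205 and 223 TPM, with 5 of 5 higher in replicate 2. Choroid plexus markers summed to 15 and 27.9 TPM, with 4 of 5 higher. The part of these cell types in the ratios of Nfia, Nfix, Sox5 and Zbtb20 was not tested.

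The genes of the set were long and had many annotated transcripts. The median number of annotated transcripts was 8 in the set and 5 in detected protein-coding genes, up to 62 for Tcf4, while Neurod2, Neurod6, Bhlhe22 and the 3 POU genes had 1 each. The longest transcript had a median of 5538 nt in the set and 3527 nt in detected protein-coding genes, and the gene span a median of 71.9 kb and 25.9 kb. Protein-coding transcripts held a median of 94.3% and 93.6% of TPM per gene of the set, and 88.9% and 89.7% in detected protein-coding genes. Transcripts under 1000 nt held a median of 5.23% and 4.80% in the set against 11.7% and 11.0% in detected protein-coding genes. They held over 20% in 12 and 11 genes of the set, with 58.5% and 58.8% in Zbtb20 and 57.8% and 55.2% in Nfia. The share of detected protein-coding genes over 20% was not counted. Over transcripts of at least 1000 nt alone, the mean level was 52.3 TPM for Zbtb20, 5.73 TPM for Crem and 9.66 TPM for Sox5, each more than 1.5 times below its level over all transcripts.

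Of the 30 detected genes with several transcripts, 21 (70.0%) had the same most abundant transcript in both libraries and both quantifications, and 66.0% of detected protein-coding genes with several transcripts did. Between the libraries within one quantification the number was 27 of 30 in each, beside 88.8% of such genes in the first quantification and 85.9% in the second. The 9 genes without a fixed leader were Tcf4, Nfia, Id2, Tcf12, Creb1, Meis2, Sox5, Crem and Cux2. Id2 is one of them, with Id2-202 at 0 TPM by the first quantification but 28.7 and 30.6 TPM in the second, beside Id2-201 at 31.2 and 28.8 TPM there. For Tbr1 the 796-nt Tbr1-203 had 0.92 and 1.04 TPM in the first quantification and 17.8 and 15.2 TPM in the second. Emx1-202, a retained-intron form, held 33.3% and 23.8% of Emx1.

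Coding exons that some transcripts include and others skip were compared between the libraries. There were 53 such exons, and 22 of them, in 15 of the genes, had at least 1 TPM on each side and an inclusion between 10% and 95% in both libraries of both quantifications. Of the 22, 13 have a length that keeps the reading frame, and for 17 the mean inclusion differed by less than 15 percentage points between the quantifications. Inclusion here is the TPM of transcripts that contain the exon as a share of those that contain or skip it, estimated by the authors' quantification and not from junction reads. For the 144-nt and 138-nt exons of Mef2c, transcripts with the other exon were left out of this share. The 138-nt exon met the limits on that basis, at 37.7% and 24.1% in the first quantification, which is not its share of all Mef2c transcripts.

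**Figure D4:**
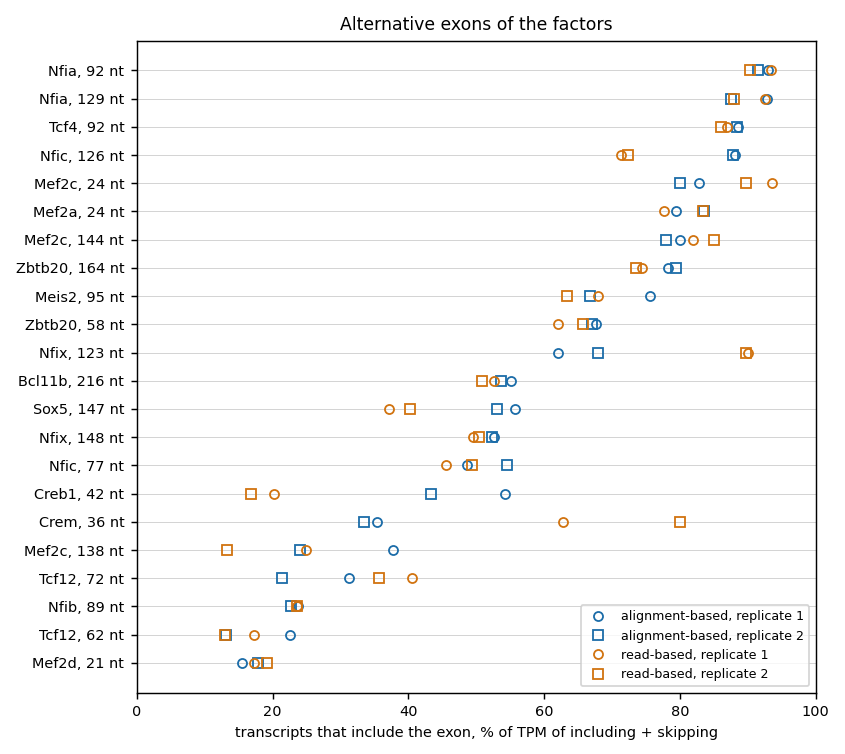
Inclusion of the 22 alternative coding exons in percent, with circles for replicate 1 and squares for replicate 2, blue for the first (alignment-based) and orange for the second (read-based) quantification. For the 144-nt and 138-nt exons of Mef2c, transcripts with the other exon are left out. The short exon is mostly included in Mef2a and Mef2c and mostly skipped in Mef2d in all 4 estimates, while Creb1, Crem and Nfix exons differ between the quantifications.

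The MEF2 genes differed in the use of the short exon shown above. It was included in 79.5% and 83.6% of Mef2a and in 82.9% and 80.1% of Mef2c, but in 15.5% and 17.9% of Mef2d. In the second quantification the values were 77.6% and 83.4% for Mef2a, 93.6% and 89.7% for Mef2c and 17.3% and 19.2% for Mef2d. In all 4 estimates Mef2d had the lowest inclusion of the 3 genes, while Mef2a was above Mef2c in 1 estimate and below it in 3. Mef2d included it in 1 annotated transcript, Mef2d-203, at 12.5 and 14.3 TPM, beside 68.4 and 65.6 TPM without it.

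Of the 2 alternative Mef2c exons the 144-nt one prevailed. Transcripts with it summed to 23.1 and 24.4 TPM, while those with the 138-nt exon summed to 3.48 and 2.18 TPM, and in the second quantification the sums were 46.5 and 45.9 TPM against 3.39 and 1.23 TPM. Transcripts with neither had 5.75 and 6.86 TPM in the first quantification and 10.2 and 8.05 TPM in the second. The 42-nt exon of Creb1 was included at 54.3% and 43.3% in the first quantification but at 20.2% and 16.8% in the second, so its use is uncertain. Tcf12 has a 72-nt exon, present at 31.3% and 21.4% in the first quantification and 40.5% and 35.6% in the second.

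In the NFI genes the exon shown above was mostly included. Its inclusion was 92.9% and 87.6% in Nfia, 88.2% and 87.9% in Nfic and 62.1% and 67.9% in Nfix. The second quantification gave 92.6% and 88.0% for Nfia, 71.4% and 72.4% for Nfic and 90.0% and 89.8% for Nfix, so only the Nfia value was close between methods. A separate 148-nt exon of Nfix had 52.6% and 52.3%, with 49.5% and 50.4% in the second quantification. The 216-nt exon of Bcl11b, at chr12:107965672-107965887 on the minus strand, was included in 55.1% and 53.7%, and in 52.6% and 50.8% in the second quantification. Its 2 forms, Bcl11b-201 and Bcl11b-203, were thus near equal in level.

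Of the 37 genes, 16 share exon bases with a gene on the opposite strand, and the share over all genes was not counted. The strand setting of the quantification is not given in the sources used here, so reads of such pairs may be exchanged. The partner of Mef2a, the protein-coding gene Lysmd4, had 624 and 540 counts on the whole gene beside 6020 and 5938 on Mef2a. Prox1os had 75 and 72 counts beside Prox1, and Emx2os had 175 and 157 counts beside 558 and 529 on Emx2, the largest share among the pairs named.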

How the data were processed

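Total RNA of mouse hippocampus was measured in 2 libraries. Per the deposited text listings, the authors derived a gene and a first transcript quantification from an alignment to the transcriptome, and a second transcript quantification directly from the reads, with mm10 and GENCODE M21. The names of the programs, their versions and their strand setting are not stated in the sources used here. Expected counts, as deposited by the authors, are estimated numbers of reads and can be fractional. TPM values, as deposited by the authors, are abundances per length scaled over every entry, spike-ins included. Reads of both parental strains were set against the C57BL/6J reference, and the effect was not measured.

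The genes were taken by symbol and joined by gene identifier, and second-quantification gene levels are sums over transcripts. Detection meant at least 1 TPM in each library, and ratios needed 50 counts in both. TMM factors came from edgeR 4.0.16 and size factors from DESeq2 1.42.0, both under R 4.3.3 on counts rounded to whole numbers. Counting intervals are at 95%. Other values were computed in Python 3.11.15 with pandas 2.3.3. All 37 genes were described, and other genes were named as the highest and lowest of fixed lists or as markers. The genes and lists were chosen with earlier results of these data known. The exons printed, and the alternative with transcripts of at least 1000 nt, were chosen after their values were seen. With 1 group there was no test between groups and no p-value. Total counts of 31422827 and 31303010 limit precision for genes with few counts.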

Additional observations from a re-analysis of the deposited data

How the results depend on the processing

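The median level of the 37 genes, 39.0 TPM, moved with the scale. It was 61.4 TPM in the second quantification, 93.5 TPM when TPM was rescaled over nuclear protein-coding genes, and 34.1 TPM over transcripts of at least 1000 nt, and 39.4 TPM over detected genes. Without replicate 1 or replicate 2 it ranged from 37.1 to 39.7 TPM. The number detected was 36 without either library, and 35 to 37 across the other thresholds and scalings tried. The median log2 ratio stayed between -0.03 and 0, and 0 genes were 1.5-fold apart, under every normalization, count filter and pseudocount tried. The number with 1 leading transcript was 21, and 23 without either library. Families with the leader reported numbered 12, and 9 by counts. Single levels moved by more than the spread between the libraries in 37 of 37 genes in the second quantification and on the protein-coding scale, and in 21 of 37 with transcripts of at least 1000 nt. No paired analysis was possible because there is only 1 group. No single gene could be checked beyond these 2 libraries, and genes near 50 counts, such as Meis1, are limited by counting error.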
